A study of Rattus norvegicus with 6 samples.

Results

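Monoamine oxidase A (Maoa), monoamine oxidase B (Maob) and the mitochondrial aldehyde dehydrogenase Aldh2 clear dopamine and the aldehyde made from it. They were followed in the substantia nigra pars compacta of rats given rotenone or solvent. A probe was taken as a member if its accession, without version, is a rat RefSeq transcript of one of these 3 genes. This found 2 genes, with 1 probe each, among the 4013 genes that could be named on the array. GE21775 carries a transcript accession of Maob and GE1233937 carries one of Aldh2. No probe carried an accession paired with Maoa, which was not analysed here.

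The rotenone group was 3 male Sprague Dawley rats (rats 16, 13 and 9), 5 months old, whose subcutaneous osmotic pumps released rotenone at 0.5 mg/kg per day for 28 days. Rotenone inhibits complex I of the respiratory chain. The solvent group was 3 rats of the same sex, strain and age (rats 11, 7 and 1). They carried the same kind of pump for 28 days, filled with dimethylsulfoxide and polyethylene glycol, without rotenone. The pars compacta was cut out under the laser microscope, and each rat gave the RNA for 1 one-colour array. The question put to the data was what a lasting low dose of the pesticide does to expression in this region. In laser-captured tissue, fewer cells of a type and less RNA per cell cannot be told apart.

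Monoamine oxidases are flavoenzymes of the outer mitochondrial membrane. They strip the amine from dopamine, noradrenaline and serotonin and leave an aldehyde, ammonia and hydrogen peroxide. In the rodent brain the A form is known mainly from catecholamine neurons and the B form from astrocytes and serotonin neurons, and inhibitors of the B form are used against Parkinson disease. The aldehyde made from dopamine, DOPAL, is reactive. It is oxidised to an acid by aldehyde dehydrogenases, among them Aldh2 in the mitochondrial matrix, which uses NAD+, and cytosolic Aldh1a1. Aldehyde and aldose reductases can instead reduce it to an alcohol. Maob and Maoa stand next to each other in the RefSeq table of the assembly GRCr8, with 0 genes starting between them.

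Of 33849 probes, between 44.2% and 49.1% were above background on a rotenone array and between 49.0% and 51.5% on a solvent array. The array of rotenone rat 16 stood apart. Its probes correlated with those of another array at 0.931 on average, where the other 5 arrays reached 0.956 to 0.964, and its median net intensity was the lowest of the 6. Of 19 markers of dopamine neurons 14 were named on the array and 11 tested, and the 3 taken as checks of the tissue were bright. Tyrosine hydroxylase (Th), which starts dopamine synthesis, averaged a normalized log2 intensity of 12.85 with rotenone and 12.74 with solvent. The dopamine transporter Slc6a3 averaged 12.53 with rotenone and 12.73 with solvent, while Ddc, the decarboxylase of dopamine synthesis, averaged 13.05 with rotenone and 12.98 with solvent. The vesicular monoamine transporter gene Slc18a2, of the same list, averaged 9.08 with rotenone and 9.63 with solvent, with overlapping groups. It differed by -0.54 ± 0.26 (SE), with an unadjusted p of 0.0667 in limma. Other markers of the list were dim: Kcnj6 was above background on 0 of 6 arrays, Gch1 and Foxa1 on 1 each, and Pitx3 on 0 of 3 rotenone and 3 of 3 solvent arrays. The Pitx3 values themselves overlapped, at 5.95, 6.15 and 5.82 in rotenone rats 16, 13 and 9. In solvent rats 11, 7 and 1 they were 6.15, 6.14 and 6.14. Astrocyte genes were present too. The glutamate transporter Slc1a3 averaged 11.29 with rotenone and 11.06 with solvent, and the filament gene Gfap 8.18 with rotenone and 8.33 with solvent. The water channel gene Aqp4, also an astrocyte marker, was above background on 0 of 6 arrays.

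Maob and Aldh2 were above background on all 3 rotenone and all 3 solvent arrays. Both spots were of modest brightness. The scanner marked both as irregular on every array except that of rotenone rat 16. That mark fell on between 29.4% and 36.3% of all probes of an array, those near background included. With marked spots left out, 3910 of the 16708 probes could still be tested. The Aldh2 spot read 60.6, 145 and 121 in rotenone rats 16, 13 and 9, over a local background of 43, 44 and 42. It read 226, 228 and 147 in solvent rats 11, 7 and 1, over a background of 43, 37 and 41. The spot of rotenone rat 16 was thus 1.41 times its background, where the other 5 lay between 2.88 and 6.15 times. The Maob spot read 74.3, 135 and 113 in rotenone rats 16, 13 and 9 and 97.7, 138 and 81.5 in solvent rats 11, 7 and 1. It was 1.73 times its background in rotenone rat 16 and between 2.40 and 3.46 times on the other arrays. Scaled by the authors' software to the median of each array, the net Aldh2 signal was 1.51, 6.80 and 5.65 with rotenone and 12.5, 11.9 and 6.33 with solvent. The same scaled signal of Maob was 2.67, 6.15 and 5.11 with rotenone and 4.14, 6.12 and 2.84 with solvent.

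**Figure D1:**
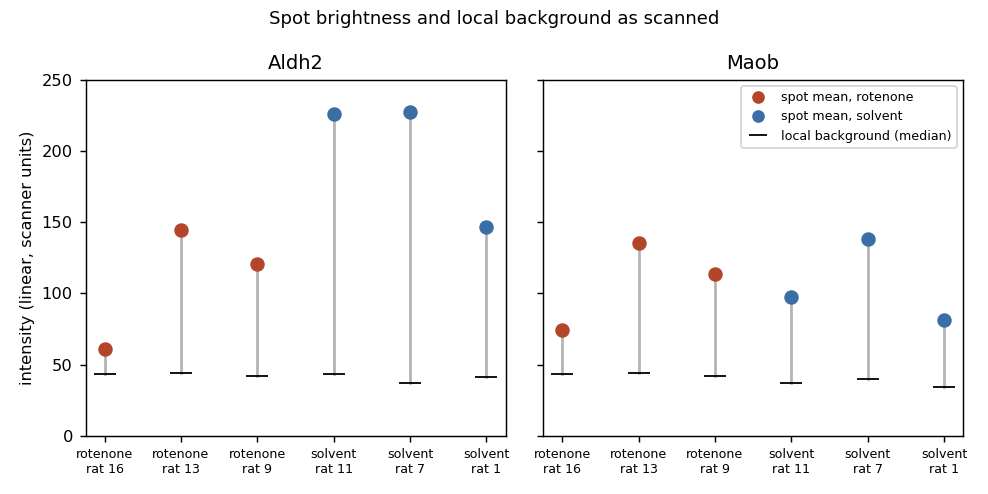
Spot mean (dots) and local background median (dashes) of the Aldh2 and Maob probes on each array, in linear scanner units. The Aldh2 spot of rotenone rat 16 lies at 60.6, close to its background of 43, while those of solvent rats 11 and 7 lie at 226 and 228.

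Aldh2 had a lower mean with rotenone, and did not pass the test across the array. After background correction and quantile normalization its log2 intensity was 6.33, 7.24 and 7.08 in rotenone rats 16, 13 and 9, and 7.86, 7.86 and 7.23 in solvent rats 11, 7 and 1. The groups touched at their edges: rotenone rat 13 lay just above solvent rat 1, and in 8 of the 9 pairs of a rotenone with a solvent rat the rotenone value was the lower. The means were 6.89 ± 0.49 with rotenone and 7.65 ± 0.36 with solvent (SD, n = 3 each). The difference was -0.77 ± 0.27 (SE) on the log2 scale, with a 95% interval from -1.36 to -0.17. This is 0.588 of the solvent level, with an interval from 0.390 to 0.887, on a scale where an added offset of 50 intensity units draws differences towards 0. Limma's moderated test gave an unadjusted p of 0.0163 and an adjusted p of 0.895 (Benjamini-Hochberg over 16708 probes), and an exact two-sided permutation test over the 6 rats gave p = 0.2, where 0.1 is the smallest it can give. Of all probes tested, 0.509% differed by at least as much in either direction, and by unadjusted p Aldh2 stood at rank 209 of 16708.

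The difference of Aldh2 was larger with plain background subtraction and on the authors' scaled intensity, and smaller without the array that stood apart. With plain background subtraction it was -1.33 ± 0.57 (SE), with an unadjusted p of 0.0539 in limma. On the authors' scaled intensity, with 0.5 added, it was -1.20 ± 0.51, with an unadjusted p of 0.0436 in limma. Without rotenone rat 16 it was -0.49 ± 0.22, with an unadjusted p of 0.0596 in limma. It was -0.66 both without solvent rat 11 and without solvent rat 7, with unadjusted p values of 0.0592 and 0.0571 in limma. Without rotenone rat 13, rotenone rat 9 or solvent rat 1 it was -0.94, -0.87 and -0.98. The deviation from the solvent mean was -1.32, -0.41 and -0.57 in rotenone rats 16, 13 and 9. It was 0.21, 0.21 and -0.42 in solvent rats 11, 7 and 1, each of which is itself part of that mean.

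Maob showed no difference beyond the spread among rats. Its log2 intensity was 6.63, 7.15 and 7.0 in rotenone rats 16, 13 and 9, and 6.83, 7.18 and 6.61 in solvent rats 11, 7 and 1. The rotenone rats fell inside the range of the solvent rats. The means were 6.93 ± 0.27 with rotenone and 6.87 ± 0.29 with solvent (SD, n = 3 each). The difference was 0.06 ± 0.21 (SE) with a 95% interval from -0.40 to 0.51, an unadjusted p of 0.794 and an adjusted p of 0.971 in limma, and an exact permutation p of 0.9. Its sign is not settled: it was -0.020 when the medians of the arrays were equalised instead, and -0.056 and -0.077 without rotenone rat 13 and without solvent rat 1. The interval spans folds from 0.756 to 1.43.

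**Figure D2:**
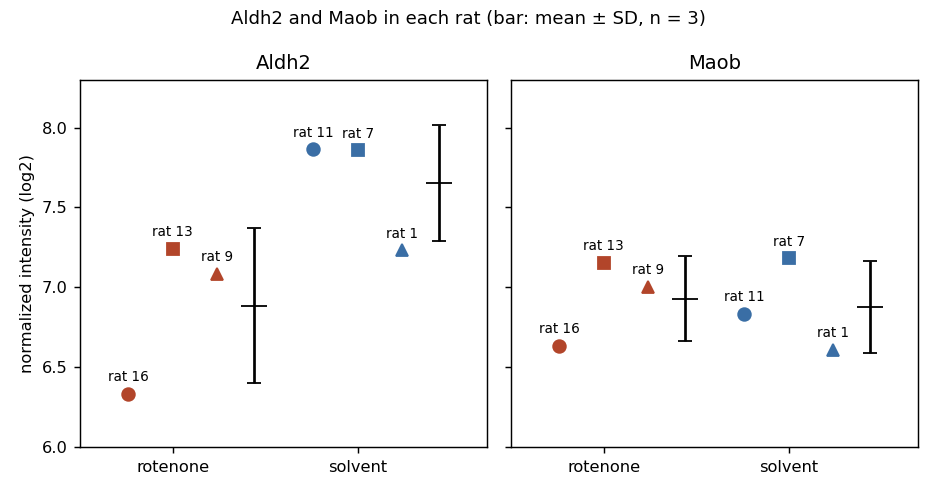
Normalized log2 intensity of Aldh2 (left) and Maob (right) in each rotenone and solvent rat, with the mean ± SD (n = 3) beside the points. For Aldh2 rotenone rat 16 is lowest at 6.33 and solvent rats 11 and 7 highest at 7.86, while for Maob the rotenone values from 6.63 to 7.15 lie within the solvent values from 6.61 to 7.18.

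The counts for the members were read beside those for the whole array. At an adjusted p below 0.05, 0 of the 2 members and 0% of the 16708 probes were called in limma, and 825 probes had an unadjusted p below 0.05. At an unadjusted p below 0.05 and lower with rotenone, Aldh2 was 1 of the 2 members, where 2.95% of all probes were so, and 1.99% were so in the other direction. Lower means with rotenone were found for 1 of the 2 members and for 48.3% of all probes. Of the 2 members 0 had groups that did not overlap, where 4.89% of all probes were lower and 5.08% higher without overlap.

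Aldh2 and Maob were then set against each other on the same array, which tests whether one differed between the groups by more than the other. Aldh2 minus Maob, in log2, was -0.30, 0.09 and 0.08 in rotenone rats 16, 13 and 9, and 1.03, 0.68 and 0.62 in solvent rats 11, 7 and 1. All 3 rotenone rats lay below all 3 solvent rats. The mean was -0.04 ± 0.22 with rotenone and 0.78 ± 0.22 with solvent (SD, n = 3 each), and the groups differed by -0.82. The exact two-sided permutation test gave p = 0.1, the smallest that 3 rats against 3 allow, so this comparison cannot pass 0.05, and it was the 1 pair that could be tested. Without rotenone rat 16 the difference was -0.69, with the groups still apart. Such a separation is common for Aldh2: when each other probe tested was subtracted from it in place of Maob, the rotenone rats lay below the solvent rats without overlap for 40.2% of 16707 probes. The separation is therefore not particular to Maob as the partner.

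**Figure D3:**
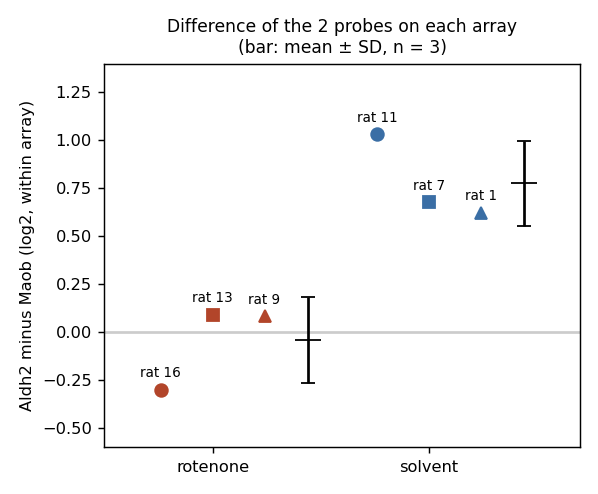
Within-array difference Aldh2 minus Maob (log2) in each rotenone and solvent rat, with the mean ± SD (n = 3) beside the points. The rotenone rats lie between -0.30 and 0.09 and the solvent rats between 0.62 and 1.03.

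Genes related to the members were taken from 5 lists. They cover amine metabolism, the aldehyde dehydrogenase family, aldehyde reductases and alcohol dehydrogenases, and the outer membrane and matrix of mitochondria. Of their 99 genes, 49 could be named on the array and 35 were tested. Of these 35, 9 came from the outer membrane list and 14 from the matrix list. Those lists hold proteins of the compartments, not enzymes chosen for dopamine clearance. None of the 35 passed the test in limma, and 0 had an unadjusted p below 0.05, the smallest being 0.0585. Lower means were found for 17 and higher means for 18, with a median difference of 0.00 on the log2 scale, against 0.01 for all probes tested. The groups did not overlap for 3 genes that were lower and 1 that was higher with rotenone, where 4.89% and 5.08% of all probes were so. Of the 35, 0 had a difference as low as that of Aldh2, and the lowest was -0.54.

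Among enzymes that act on amines, 9 of 16 were named and 4 tested, all with a higher mean and none past the test (median difference 0.08). Dbh, which turns dopamine into noradrenaline, differed by 0.30 ± 0.18 (SE). Aanat, which acetylates serotonin on the way to melatonin, differed by 0.08, Ddc by 0.07 and the sulfotransferase Sult1a1 by 0.01. Hnmt, which methylates histamine, was above background on 0 of 6 arrays.

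In the aldehyde dehydrogenase family, 5 of the 19 genes other than Aldh2 were named and 3 tested, 1 lower and 2 higher in mean. Aldh3a2, which oxidises long-chain fatty aldehydes, was at 8.29, 8.71 and 8.74 in rotenone rats 16, 13 and 9, and at 9.09, 8.89 and 8.78 in solvent rats 11, 7 and 1. The groups did not overlap, though rotenone rat 9 and solvent rat 1 nearly met. Its difference was -0.34 ± 0.18 (SE), with an unadjusted p of 0.0925 and an adjusted p of 0.895 in limma. The folate enzyme Aldh1l1, also an astrocyte marker, differed by 0.26 ± 0.17, and Aldh1a2, which makes retinoic acid, by 0.39 ± 0.32. Aldh1a1, the cytosolic partner of Aldh2 in dopamine neurons, had no matching accession and was not analysed here. Aldh6a1, a mitochondrial enzyme of valine breakdown, was above background on 0 arrays, and Aldh3a1 on 1.

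Of the reductases and alcohol dehydrogenases, 10 of 20 were named and 5 tested, with 3 lower and 2 higher in mean, a median difference of -0.10 and none past the test. Akr7a2, an aldehyde reductase, was at 8.93, 9.48 and 9.40 in rotenone rats 16, 13 and 9, and at 9.41, 9.73 and 9.49 in solvent rats 11, 7 and 1. The groups overlapped, and the difference was -0.27 ± 0.19 (SE). Akr1a1, the aldehyde reductase that can turn the dopamine aldehyde into its alcohol, was bright and even, with 12.44, 12.34 and 12.31 with rotenone and 12.40, 12.41 and 12.59 with solvent. It differed by -0.10, with a 95% interval from -0.45 to 0.25. Cbr4, a mitochondrial carbonyl reductase, differed by -0.21 ± 0.30.

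The lists for the 2 compartments show other proteins where Maob and Aldh2 reside. For the outer mitochondrial membrane 9 of 20 genes were tested, 5 lower and 4 higher in mean (median -0.10). The channel gene Vdac1 was at 11.91, 11.46 and 11.49 in rotenone rats 16, 13 and 9, and at 11.31, 11.26 and 11.16 in solvent rats 11, 7 and 1, a difference of 0.38 ± 0.18 (SE) without overlap. Mfn2, of mitochondrial fusion, differed by 0.23 and Cpt1a, of fatty acid import, by -0.24. Without rotenone rat 16 the median of this list was 0.07, and without solvent rat 11 it was 0.09. For the matrix 14 of 24 genes were tested, 8 lower and 6 higher in mean (median -0.07). Fumarase (Fh) differed by -0.37 ± 0.20 without overlap, the GABA transaminase Abat by -0.44 ± 0.25 and the glutamate dehydrogenase Glud1 by -0.54 ± 0.34, with unadjusted p values of 0.101, 0.112 and 0.149 in limma. Glud1 was at 9.01 in rotenone rat 16, where the other 5 arrays lay between 9.98 and 10.76. The citrate synthase gene Cs was the other matrix gene without overlap, at -0.22. The malate dehydrogenase gene Mdh2 was also low in that rat, at 8.46, where the other 5 arrays lay between 9.57 and 9.96, and differed by -0.46 ± 0.32.

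**Figure D4:**
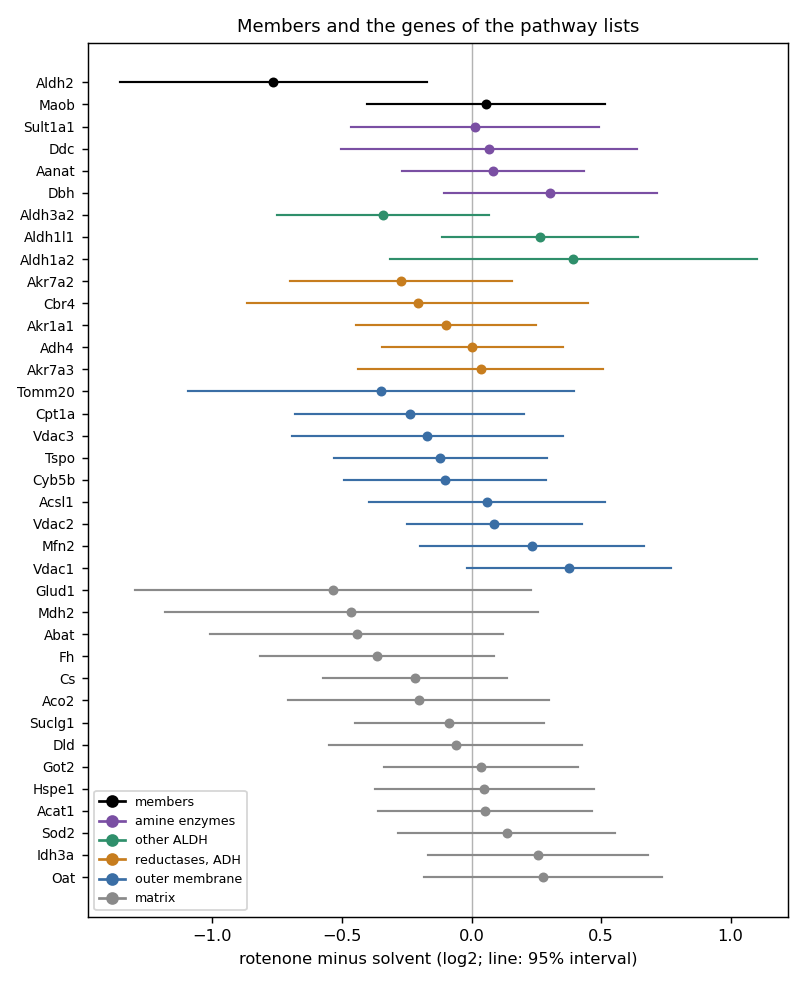
Difference rotenone minus solvent (log2, dot) with its 95% interval (line) for Aldh2, Maob and the tested genes of the 5 pathway lists. The interval of Aldh2, from -1.36 to -0.17, is the one that leaves out 0 in this plot, before any adjustment for the number of probes.

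Cell type markers were read beside the members. Of 14 astrocyte markers 9 were tested, 4 lower and 5 higher in mean, and none passed the test. The groups did not overlap for 0 that were lower and 1 that was higher with rotenone, where 4.89% and 5.08% of all probes were so. The median difference was 0.02. It was 0.23 with rotenone rat 16 left out and -0.11 with rotenone rat 9 left out. Of the untested ones, Aqp4, Ntsr2 and Slc1a2 were above background on 0 arrays. Normalized intensities of the tested markers were also summed on the linear scale, where the brightest genes weigh most. The log2 of this sum ran from 13.89 to 14.14 with rotenone and from 13.89 to 13.99 with solvent. Relative to the solvent mean, the astrocyte genes had a median of -0.44, 0.34 and 0.20 in rotenone rats 16, 13 and 9 and -0.05, -0.04 and 0.10 in solvent rats 11, 7 and 1. Maob deviated by -0.24, 0.28 and 0.13 in the same rotenone rats and by -0.04, 0.31 and -0.26 in the same solvent rats. Among the rotenone rats, rat 16 was lowest and rat 13 highest for Maob, Aldh2 and the astrocyte list, and equally for the GABA neuron, oligodendrocyte, microglia, endothelium and matrix lists. Among the solvent rats, rat 1 was highest for the astrocyte list and lowest for Maob and Aldh2. The part of astrocyte content in these values was not tested.

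Of 19 dopamine neuron markers 11 were tested, with a median difference of -0.17, 7 lower and 4 higher in mean. That median is the value of Pitx3, which is among the lower genes and passed the filter through the 3 solvent arrays alone. The tested genes next to it in order differed by -0.20 and -0.0006. None of the 11 passed the test. In limma 2 of the 11 had an unadjusted p below 0.05: the synuclein gene Sncg at -0.67 ± 0.23 (SE) and the transcription factor gene Nr4a2 at -0.79 ± 0.32. Both were lower with rotenone, where 2.95% of all probes were so at that level. The groups of Nr4a2 overlapped, and it was above background on 2 of the rotenone arrays. Lower without overlap were 2 of the 11, Sncg and Slc6a3, and 0 were higher, where 4.89% and 5.08% of all probes were so. The log2 of the summed intensity of the list ran from 14.75 to 15.20 with rotenone and from 14.88 to 15.16 with solvent. Their median deviation was -0.19, -0.30 and 0.01 in rotenone rats 16, 13 and 9, and -0.13, 0.02 and 0.09 in solvent rats 11, 7 and 1. Of 8 markers of serotonin and noradrenaline neurons 4 were tested (median 0.09). The log2 of their summed intensity ran from 8.48 to 8.83 with rotenone and from 8.44 to 8.55 with solvent. The serotonin transporter Slc6a4 was above background on 0 arrays and Tph2, which starts serotonin synthesis, on 2. Without rotenone rat 16 the median of these 4 genes was -0.010.

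The oligodendrocyte list had the lowest median of the 9 marker lists in the reported fit. That rank changed with the setting. Without rotenone rat 16 its median was -0.168, against -0.171 for dopamine neurons. Without solvent rat 7 it was -0.10, against -0.17 for dopamine neurons. With array medians equalised it was -0.24, against -0.27 for microglia and macrophages. Of the 14 oligodendrocyte genes 9 were tested, 7 lower and 2 higher in mean (median -0.21), and none passed the test. The myelin gene Mal differed by -0.66 ± 0.28 (SE), with an unadjusted p of 0.0366 in limma, the 1 gene of the list below 0.05. At that level 2.95% of all probes were lower with rotenone. The groups of Mal overlapped, with rotenone rat 13 at 10.17 and solvent rat 7 at 10.12. The log2 of the summed intensity of the list ran from 12.18 to 12.53 with rotenone and from 12.30 to 12.83 with solvent. Relative to the solvent mean, its median was -0.54, -0.05 and -0.24 in rotenone rats 16, 13 and 9 and -0.30, -0.04 and 0.33 in solvent rats 11, 7 and 1. Solvent rat 1 was thus highest for this list, while it was lowest of the solvent rats for Aldh2. Of 7 GABA neuron markers 6 were tested, 5 lower and 1 higher in mean (median -0.04). Among them Gad2, which makes GABA, differed by -0.41 ± 0.17 without overlap, with an unadjusted p of 0.0401 in limma. Gad2 was the 1 gene of the 6 below 0.05 and the 1 that was lower without overlap. Of all probes, 2.95% and 4.89% were lower in these ways. Its probe was dim, above background on 1 rotenone and 2 solvent arrays. Gad1, which also makes GABA, was brighter and differed by -0.03. The medians of the other lists were -0.15 for microglia and macrophages, -0.05 for endothelium and pericytes, -0.10 for blood cells and 0.26 for ependyma, choroid plexus and meninges. The last rests on 3 tested genes, and was -0.11 without solvent rat 11 and 0.05 without rotenone rat 16. The part of neuron and oligodendrocyte content in the values of Maob and Aldh2 was not tested.

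Over the 6 arrays, the genes whose pattern was most like that of Aldh2, among 589 named genes measured on all arrays with an SD of at least 0.3, were Bud31, Matk and Hagh. Their Pearson r was 0.986, 0.977 and 0.972, with Spearman's rho of 0.886, 0.829 and 0.886, and r without rotenone rat 16 was 0.961, 0.943 and 0.985. These 3 genes differed between the groups by -0.80, -0.70 and -0.45. Bud31 is a splicing factor gene, Matk encodes a tyrosine kinase, and Hagh encodes glyoxalase II of methylglyoxal clearance. For Maob they were Dnajc21, Bhlhe41 and Hadhb, with r of 0.989, 0.939 and 0.932 and rho of 1, 0.886 and 0.886. These differed between the groups by 0.08, -0.03 and -0.14. Hadhb is a subunit of the mitochondrial trifunctional protein of fatty acid oxidation, and Bhlhe41 is a clock repressor. With 6 arrays and this many candidates, high values are a description, and the arrays share their normalization and the distance of rotenone rat 16.

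**Figure D5:**
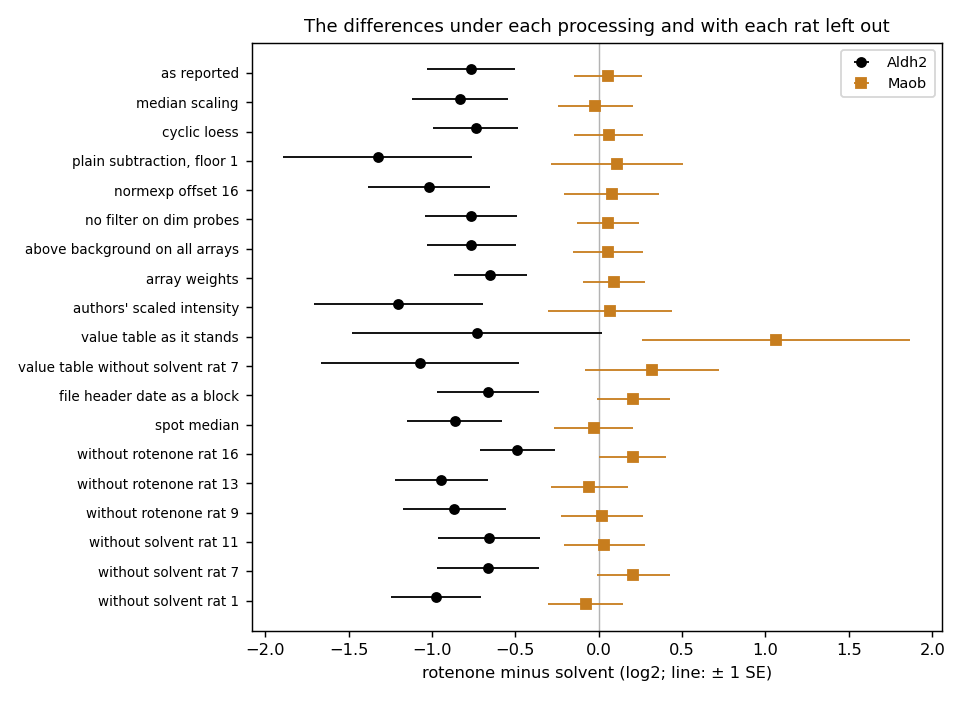
Difference rotenone minus solvent (log2, with ± 1 SE) of Aldh2 (black circles) and Maob (orange squares) under each processing and with each rat left out. Aldh2 lies between -1.33 and -0.49 throughout, and Maob between -0.077 and 0.32 except at 1.07 in the deposited value table as it stands, where the column of solvent rat 7 is beside the wrong probes.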

How the data were processed

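The deposited scanner files give linear intensity per spot (mean, median, local background median, their difference, and that difference scaled to the array median); per the labels' protocols, RNA was amplified, biotin-labelled and read on 1 array per rat. The scanner software was not given in the sources used here. In the deposited value table, the intensity column of solvent rat 7 equals its scanner file for 0.898% of probes, against 100% for the other 5. Probes were named through RefSeq accessions of GRCr8 (4675 of 33849).

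Background was corrected with normexp (offset 50), control spots were dropped, every other spot was kept, and log2 values were quantile-normalized (limma 3.58.1, R 4.3.3). The 16708 probes that the scanner marked neither near background nor masked on at least 3 of 6 arrays were tested with limma, two-sided, Benjamini-Hochberg adjusted. For the authors' scaled values, negatives were set to 0 and 0.5 was added. List medians use the brightest probe per gene. The planned pairs with Maoa could not be run. The number of arrays limits the precision.

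Members, lists and tests were chosen with earlier results of these data known. Named genes are the members, fixed tissue markers, the 3 lowest p values of each pathway list, and the 3 genes most like each member; another gene of this rule is not reported here. Cs, Sult1a1, Hnmt, Aldh6a1, Aldh3a1, the outlying astrocyte and serotonin markers, Sncg, Nr4a2, Slc18a2, Kcnj6, Gch1, Foxa1, Pitx3, Mdh2, Mal, Gad1, Gad2 and Aldh1a1 were named after their values were seen.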

Additional observations from a re-analysis of the deposited data

How the results depend on the processing

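Under 12 other ways of processing, the difference of Aldh2 lay between -1.33 and -0.65 with adjusted p values from 0.724 to 1.00 in limma, and with a rat left out between -0.98 (without solvent rat 1) and -0.49 (without rotenone rat 16), with adjusted p values from 0.606 to 1.00. Its direction and its side of the threshold stayed the same in these 18 repeats, of which the header-date block and the fit without solvent rat 7 are the same fit, and the 2 other filters on dim probes leave the difference itself as it was. Also among them is the deposited value table as it stands, with the column of solvent rat 7 beside the wrong probes, which gave the 0.724. Maob turned to -0.020 with medians equalised and to -0.029 with the spot median, a setting chosen after seeing the data, and ran from -0.077 to 0.21 with a rat left out. The within-array difference of Aldh2 and Maob lay between -1.79 and -0.69 in 16 repeats, each at the smallest p its exact test allows. The -1.79 came from that same misplaced value table, and with plain background subtraction the difference was -1.43. The count of probes called was 1 of 16708 with the spot median and 0 to 3 with a rat left out (3 without solvent rat 1), with neither member among them. With spots marked by the scanner left out, 0 of 3910 probes were called, and neither member could be fitted. Each had an unmarked spot on 1 of 6 arrays only, that of rotenone rat 16. With the header date as a block, which sets solvent rat 7 apart, Aldh2 was at -0.66 and Maob at 0.21. What that date records was not given in the sources used here. Probes at an unadjusted p below 0.05, 825 in the reported fit, numbered 1582 of 33849 with no filter on dim probes, 183 of 3910 without marked spots, 69 in the deposited value table as it stands and 1369 without rotenone rat 13. Of the repeats of list medians, 99 stayed within the spread among rats and 13 did not, 5 of these for the outer membrane list, from -0.20 with medians equalised to 0.09 without solvent rat 11. The causes were not tested. Replicate numbers are animal numbers that the groups do not share. No paired analysis was possible because of this.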
